A study of Mus musculus with 8 samples.

Results

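The 10 interferon-responsive TRIM genes described here are Trim30a, Trim30b, Trim30c, Trim30d, Trim12a, Trim12c, Trim34a, Trim21, Trim14 and Trim26. They were found in the count table by their Ensembl identifiers, which map to these symbols in GENCODE M21. They are 10 of the 73 TRIM-family genes and of the 49315 genes counted. The 10 genes were picked because they were lower after MAARS knockdown in these same libraries, so their fold changes are given as a description, with no test.

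TRIM proteins carry a tripartite motif of a RING finger, B-boxes and a coiled coil, and most transfer ubiquitin to other proteins through the RING finger. In macrophages they act on both sides of antiviral defence. Some bind viral particles or antibody-coated virus, and others switch the RNA and DNA sensors, their adaptors and their kinases on or off. The genes of the Trim30, Trim12 and Trim34 groups stand side by side on chromosome 7 and belong to a stretch of the genome that has expanded in rodents. Type I interferon is known to raise many of these genes through a complex that includes STAT2 and IRF9 and binds the interferon-stimulated response element (ISRE). TRIM14 is an exception among them, since it lacks a RING finger and works as a scaffold.

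The cells were bone marrow-derived macrophages (BMDMs) of C57BL/6 mice, cultured in IMDM with 10 ng per ml of macrophage colony-stimulating factor, 10% serum and antibiotics. All cultures were transfected with 25 nM of a gapmeR, an antisense oligonucleotide that directs RNase H to its target, with a lipid transfection reagent. The gapmeR was either negative control #1 (replicates 2, 5, 6 and 7) or directed against the macrophage lncRNA MAARS (replicates 9, 11, 13 and 15), and each group had 4 libraries of ribodepleted total RNA. The labels do not say how many MAARS gapmeR designs were used. They name no interferon treatment, so the name interferon-responsive comes from background knowledge and not from a treatment measured here. In bulk RNA of this kind, fewer cells of a type and less RNA per cell cannot be told apart.

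The libraries held 19287279 to 20567123 counts in the control group and 20839671 to 24541205 in the MAARS gapmeR group, so each MAARS gapmeR library was the deeper. MAARS itself, annotated as Gm14461 on chromosome 2, fell from 13.1 ± 1.36 to 6.82 ± 0.844 CPM (counts per library size; SD, n = 4), a log2 fold change of -0.95 with a standard error (SE) of 0.112 (edgeR quasi-likelihood test, adjusted p = 5.8e-05). Of the 13051 genes tested, 24.0% were called lower and 21.3% higher at an adjusted p under 0.05. Upper-quartile factors moved the share of calls that were higher from 47.0% to 60.4%. All 8 macrophage markers were above 1 CPM in every library, and they did not move together. Fcgr1 was at 23.5% of control (log2 fold change -2.09, edgeR adjusted p = 7.12e-06) and Cd68 at 79.1%, both lower, while Csf1r, Lyz2, Cd14, Itgam and Mertk were called higher and Adgre1 was not called. The sum of the 8, most of it Lyz2, lay between 13836 and 17118 CPM in control libraries and between 17011 and 20241 CPM in MAARS gapmeR libraries. The 5 T cell markers summed to 65.9 to 85.5 CPM and 40.6 to 51.4 CPM, nearly all of it Cd4, with Cd3g at 0 and 4 of 5 under 1 CPM. The 6 neutrophil markers summed to 55.0 to 154.4 CPM and 57.8 to 92.9 CPM with Ly6g under 1 CPM, and the 5 stromal and endothelial markers to 217.1 to 493.3 CPM and 349.0 to 587.4 CPM. Col1a1 made up nearly all of the latter, with means of 335.3 and 436.5 CPM, and Pdgfra, Dcn, Cdh5 and Tek had group means of at most 2.97 CPM. B cell, dendritic cell and NK cell markers summed to at most 2.46 CPM in any library, with Gzma at 0. The part of these shifts in the TRIM values was not tested.

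All 10 TRIM genes were lower in every MAARS gapmeR library than in every control library, a pattern that 22.8% of all genes tested showed. All 10 were also called lower by edgeR, and since they were picked on this contrast, neither count is a result about them. Their log2 fold changes ran from -3.44 for Trim30b to -0.24 for Trim26, with a median of -0.97 against 0.01 for all genes tested. Ranked by log2 fold change from the lowest among 13051 genes, Trim30b stood at 38, Trim30c at 131, Trim30d at 185 and Trim30a at 239, while Trim12c and Trim26 stood at 2809 and 2902. The summed level of the 10 genes was 988.2 ± 96.1 CPM in control and 472.9 ± 61.7 CPM in MAARS gapmeR libraries (SD, n = 4), which is 47.9% of control.

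**Figure D1:**
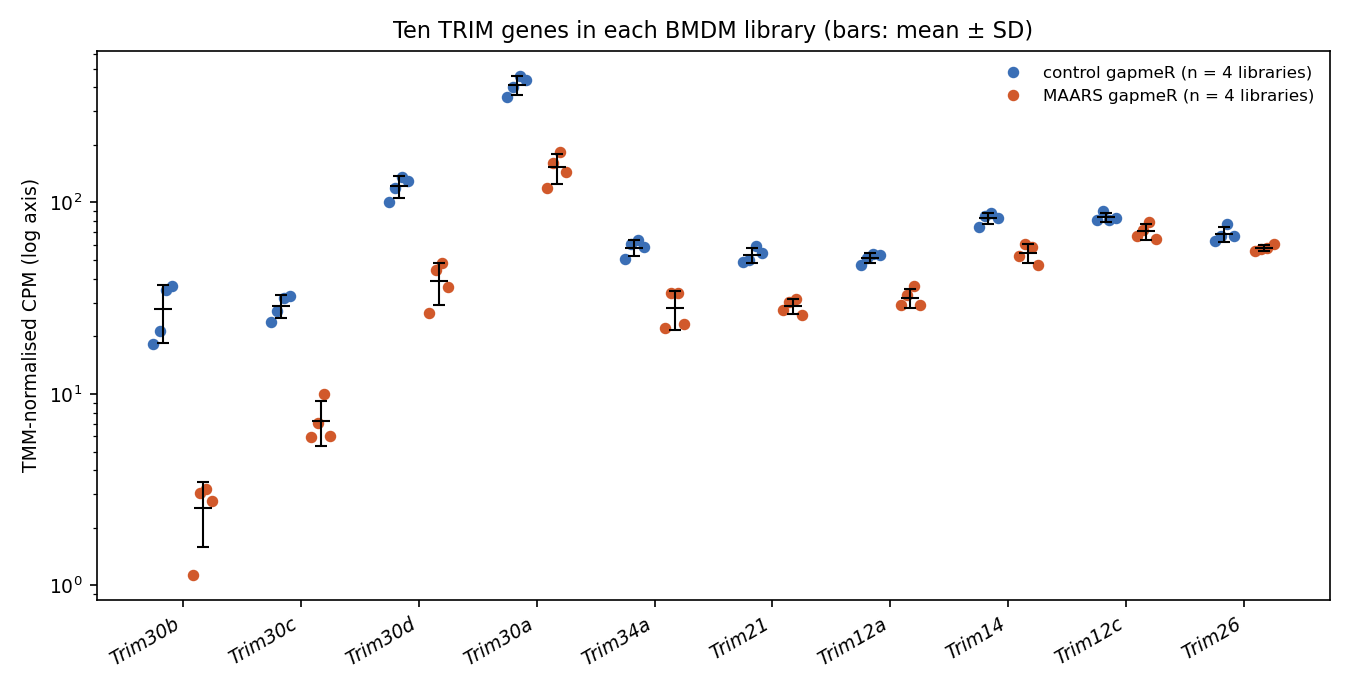
CPM normalised by trimmed mean of M values (TMM) of the 10 TRIM genes on a log axis, with 1 point per library (4 control gapmeR in blue, 4 MAARS gapmeR in orange) and black bars for the mean and SD. The gap between the groups is widest for Trim30b, at 18.3 to 36.7 against 1.14 to 3.17 CPM, and narrowest for Trim12c and Trim26.

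The 4 Trim30 genes held the lowest fold changes of the 10, and their summed level was 590.5 ± 74.7 CPM in control and 201.2 ± 39.3 CPM after knockdown. Trim30a encodes the protein best known for restraining NF-κB signalling below Toll-like receptors, by sending the TAK1-binding proteins TAB2 and TAB3 for degradation. Trim30b, Trim30c and Trim30d are its neighbours and close copies. Their coding sequences begin almost alike, and the first 60 coding bases that 4 genes share in alignment are shown because reads must be told apart by such differences. Each is read from GRCm38 on the minus strand, 5′ to 3′, and capitals mark bases that differ from Trim30a.
Trim30a: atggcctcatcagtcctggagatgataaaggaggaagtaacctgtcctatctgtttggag
Trim30b: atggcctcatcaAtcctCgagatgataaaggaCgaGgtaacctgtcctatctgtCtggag
Trim30c: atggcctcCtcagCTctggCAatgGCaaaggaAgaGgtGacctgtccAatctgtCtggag
Trim30d: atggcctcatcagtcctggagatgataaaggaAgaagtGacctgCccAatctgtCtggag
These stretches lie in single coding exons at chr7:104435942-104436001, chr7:104366120-104366179, chr7:104390524-104390583 and chr7:104487936-104487995 in the same order, and the Trim30c stretch runs from its coding base 4 to base 63. Over its whole coding sequence of 1488 bases Trim30a was 90.2% identical to Trim30d and 83.2% to Trim30c. With Trim30b the identity was 85.2%, over only 603 aligned bases. The annotated coding sequence of Trim30b used here is shorter, at 609 bases.

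Trim30a (chromosome 7, 104409025 to 104465193) was the most abundant of the 10 genes. It stood at 354.0, 398.8, 459.4 and 438.9 CPM in control libraries 2, 5, 6 and 7, and at 119.7, 161.7, 184.2 and 144.4 CPM in MAARS gapmeR libraries 9, 11, 13 and 15. The groups were far apart, with the highest MAARS gapmeR library, 13, under the lowest control library, 2. The means were 412.8 ± 46.6 and 152.5 ± 27.3 CPM, and the log2 fold change was -1.44 (SE 0.120), or 36.9% of control.

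Trim30d (104470014 to 104507849) kept close company with Trim30a. Its control libraries held 100.4, 118.7, 135.6 and 130.2 CPM and its MAARS gapmeR libraries 26.6, 44.4, 48.4 and 36.3 CPM, and it ranked the libraries as Trim30a did. Its log2 fold change was -1.64 (SE 0.156), leaving 32.1% of control. Trim30c (104382065 to 104400837) was at 23.9, 27.3, 31.7 and 32.4 CPM in control and at 5.96, 7.04, 10.0 and 6.02 CPM in MAARS gapmeR libraries. For Trim30c, MAARS gapmeR library 13 stood above the other 3, which were nearly level. Its log2 fold change was -1.99 (SE 0.158), or 25.2% of control.

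Trim30b (104355382 to 104369884) showed the lowest fold change of the 10 genes and the widest spread. The control libraries split into a lower pair, 2 and 5, at 18.3 and 21.2 CPM, and a higher pair, 6 and 7, at 34.7 and 36.7 CPM. The MAARS gapmeR libraries held 1.14, 3.02, 3.17 and 2.77 CPM. These rest on raw counts of 358, 416, 642 and 748 in control and 24, 76, 69 and 64 after knockdown, so library 9 is also the one with the least counting precision. The log2 fold change was -3.44 (SE 0.293), which is 9.10% of control, and it lay between -3.59 and -3.22 when any 1 library was left out.

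The Trim12 genes are the mouse relatives of TRIM5, the cytosolic protein that recognises the retroviral capsid, and lie next to another mouse copy that bears the name Trim5. The first 60 coding bases of both Trim12 genes are shown because 2 of these bases separate them (minus strand, 5′ to 3′, at chr7:104307272-104307331 and chr7:104348288-104348347, with capitals where Trim12c differs from Trim12a).
Trim12a: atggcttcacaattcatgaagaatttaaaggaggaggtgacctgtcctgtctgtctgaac
Trim12c: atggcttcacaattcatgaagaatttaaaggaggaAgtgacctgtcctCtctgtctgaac
Trim12a (104299894 to 104315466) was at 47.0, 51.3, 53.7 and 53.4 CPM in control and 29.0, 32.7, 36.6 and 29.2 CPM in MAARS gapmeR libraries, a log2 fold change of -0.69 (SE 0.0789). Trim12c (104338754 to 104353362) was at 81.4, 90.8, 80.6 and 82.7 CPM and at 66.5, 72.1, 79.4 and 64.6 CPM. For Trim12c the groups almost touched, at MAARS gapmeR library 13 and control library 6. Its log2 fold change was -0.25 (SE 0.0679), or 84.2% of control against 62.1% for Trim12a. Over the 891 coding bases of Trim12a the pair was 96.4% identical.

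Trim34a (104244457 to 104262234, plus strand) is the mouse relative of human TRIM34, which joins TRIM5 in the recognition of capsids. It stood at 50.5, 60.4, 63.5 and 58.4 CPM in control and at 22.0, 33.7, 33.7 and 23.1 CPM after knockdown. The MAARS gapmeR libraries formed a lower pair, 9 and 15, and a higher pair, 11 and 13, all under the lowest control library. The log2 fold change was -1.05 (SE 0.137), or 48.4% of control. Of its exon bases, 23.5% lie opposite the antisense gene Gm47248, which had 0 counts in all 8 libraries.

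Trim21 (chromosome 7, 102557921 to 102565486) is the cytosolic antibody receptor, which binds antibody that enters the cell on a virus and directs the complex to the proteasome. Its control libraries held 48.8, 50.1, 59.0 and 54.3 CPM and its MAARS gapmeR libraries 27.4, 30.2, 31.2 and 25.9 CPM. Both groups were tight around means of 53.0 ± 4.58 and 28.7 ± 2.47 CPM, and the log2 fold change was -0.89 (SE 0.0772). Trim14 (chromosome 4, 46493781 to 46536141) encodes a mitochondrial and cytosolic scaffold of the MAVS and cGAS routes. It was at 74.9, 85.5, 87.9 and 83.2 CPM in control and at 52.3, 60.4, 58.6 and 46.9 CPM after knockdown. The log2 fold change was -0.60 (SE 0.0800), or 65.8% of control. On the opposite strand, 38.0% of the Trim14 exon bases are shared with other genes, chiefly Nans, whose own log2 fold change was 0.15 (SE 0.0574, edgeR adjusted p = 0.055), and reads of overlapping genes cannot be told apart if the counting ignored strand.

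Trim26 (chromosome 17, 36837134 to 36859398, plus strand) lies in the major histocompatibility region and acts on IRF3 and on the kinase TBK1. It had the smallest change of the 10 genes. Control libraries were at 62.8, 66.4, 77.6 and 66.4 CPM, with library 6 above the other 3, and MAARS gapmeR libraries were at 55.7, 57.1, 58.2 and 60.5 CPM. The log2 fold change was -0.24 (SE 0.0646), or 84.7% of control, and it stayed between -0.27 and -0.18 when any 1 library was left out.

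To set the genes against each other, levels were expressed per exon length as TPM, the CPM-like unit that corrects for gene length. In control libraries Trim30a led at 320.5 ± 34.2 TPM, followed by Trim30d at 102.9 ± 12.5 TPM (SD, n = 4). Trim34a and Trim12c came next at 71.6 ± 5.49 and 71.6 ± 3.16 TPM, and their ranges overlapped. Trim14 at 61.0 TPM overlapped with Trim30c at 53.6 TPM, and Trim30c with Trim21 at 45.6 TPM. Trim26 at 31.7 TPM overlapped with Trim12a at 28.3 TPM, and Trim30b was the lowest at 11.8 TPM, below Trim12a in every library. After knockdown Trim30a still led at 125.4 ± 22.4 TPM, and Trim12c, at 63.8 ± 5.88 TPM, now came next. Trim30d had moved to 35.0 ± 8.70 TPM, with a range that overlapped those of Trim14 (42.5 TPM), Trim34a (36.7 TPM), Trim26 (28.5 TPM) and Trim21 (26.1 TPM). Trim30c was at 14.3 ± 3.69 TPM and Trim30b at 1.14 ± 0.424 TPM. The annotated exons of Trim30b add up to 7527 nt, which lowers its TPM wherever part of them is not used.

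Within a library, the ratio of 2 copies does not depend on depth. Trim30b counts per 100 Trim30a counts were 5.18, 5.31, 7.56 and 8.37 in control and 0.949, 1.87, 1.72 and 1.92 in MAARS gapmeR libraries. Trim30c per 100 Trim30a averaged 6.96 ± 0.288 and 4.74 ± 0.581. Trim30d per 100 Trim30a was nearly constant in control, at 29.3 ± 0.650, and was 25.3 ± 2.24 after knockdown, with every MAARS gapmeR library under every control library. After knockdown these ratios to Trim30a were 24.5% of control for Trim30b, 68.0% for Trim30c and 86.1% for Trim30d. Trim12a per 100 Trim12c was 57.7, 56.5, 66.6 and 64.6 in control and 43.6, 45.4, 46.1 and 45.1 after knockdown. The mouse Trim5 gene went the other way, at 20.4 ± 1.61 per 100 Trim12c counts in control and 30.7 ± 1.20 after knockdown.

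**Figure D2:**
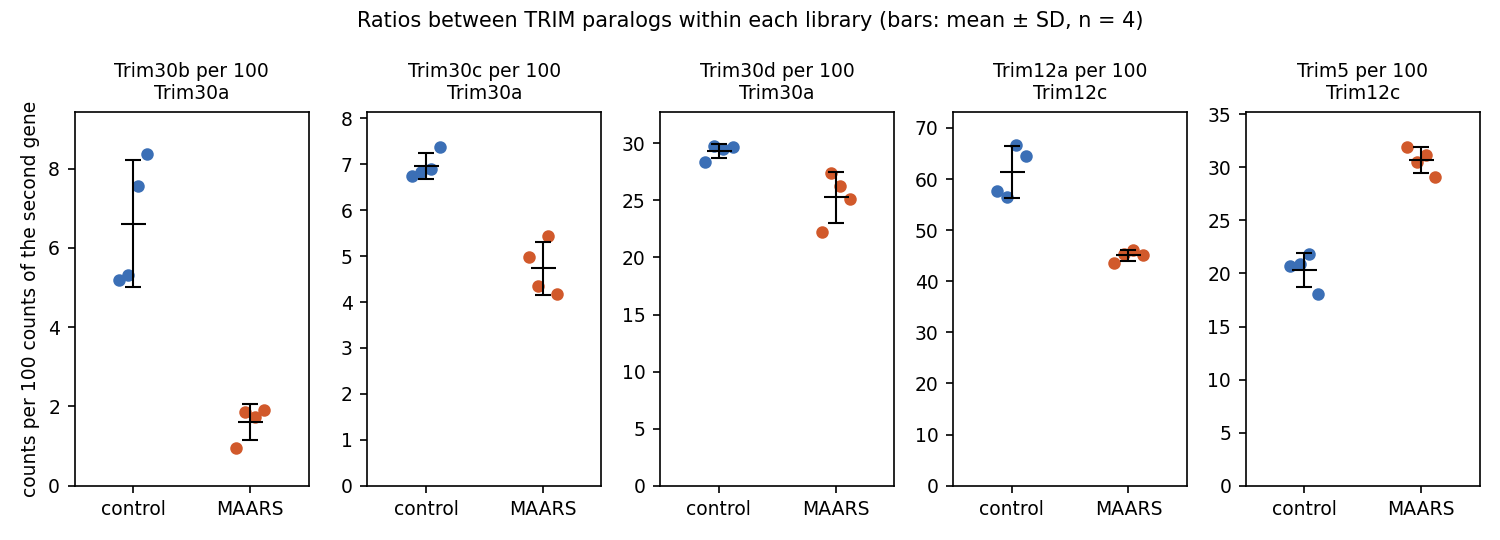
Counts of 1 gene per 100 counts of its copy within each library (points; 4 control gapmeR in blue, 4 MAARS gapmeR in orange), with mean and SD as black bars and axes from 0. The first 4 panels are lower in all MAARS gapmeR libraries, and the panel of Trim5 against Trim12c is higher, at 29.1 to 32.0 against 18.1 to 21.8.

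How far the copies can be separated depends on how the reads were assigned. Of all 100-nt windows in its transcripts, Trim30a shared 4.41% with Trim30d, and Trim30b, Trim30c, Trim21 and Trim14 shared none with any other gene. Trim12a shared 2.87% and Trim12c 8.05%, both with Trim5 more than with any other gene, and Trim34a shared 21.0%, with Trim34b. Trim5 itself shared 11.7%, and its coding sequence was 97.1% identical to that of Trim12a and 96.6% to that of Trim12c. The opposite directions of Trim5 and the Trim12 genes thus depend on how reads were divided among them, which is not known. Trim34b itself was near the floor, at 0.550 ± 0.141 and 0.290 ± 0.150 CPM. When the copies were summed and the table refitted, the Trim30 genes gave a log2 fold change of -1.55 (SE 0.132), the Trim12 genes -0.40 (SE 0.0667) and the Trim34 genes -1.04 (SE 0.137). The direction of each sum was set in advance, because no copy in it was higher after knockdown. It therefore cannot show how reads were divided. Trim5 was not part of the Trim12 sum.

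The libraries of a group took a similar order in most of the 10 genes. Control library 2 was the lowest control library in 9 of the 10 genes, against 27.2% of all genes tested, and control library 6 the highest in 7 of 10, against 27.1%. MAARS gapmeR library 9 was the lowest of its group in 7 of the 10 genes, against 28.4% of all genes, and library 13 the highest in 7, against 24.7%. Among 36 other TRIM-family genes tested, control library 2 was the lowest control library in 8. These shares describe how the genes vary together within a group, and they carry no test because genes of 1 library are not independent.

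The rest of the TRIM family was described beside the set. It is what remained after genes picked for being lower were taken out. That choice in advance lowers its share that fell, and raises its share that rose and its median. The shares below therefore cannot show how the TRIM family as a whole compared with all genes tested. Of the other 63 genes, 36 passed the low-count filter, and the 27 that did not had at most 19 counts in any library. Of the 36, 8 rose (22.2%, against 21.3% of all genes tested), 6 fell (16.7%, against 24.0%) and 22 did not pass the test, with a median log2 fold change of 0.03. Trim65, whose protein ubiquitinates the RNA sensor MDA5, rose from 15.2 ± 0.484 to 25.3 ± 1.90 CPM, a log2 fold change of 0.73 (SE 0.0702, edgeR adjusted p = 1.41e-05). Trim59, Trim47, Trim7 and Trim24 rose by 0.78, 0.37, 0.59 and 0.30 on the log2 scale (edgeR adjusted p from 0.0017 to 0.0102). Trim25, whose protein ubiquitinates the RNA sensor RIG-I, fell from 344.8 ± 19.5 to 252.0 ± 12.9 CPM, a log2 fold change of -0.45 (SE 0.0545, edgeR adjusted p = 6.52e-05). Pml, the organiser of nuclear bodies, fell from 99.4 ± 12.3 to 65.1 ± 4.13 CPM, a log2 fold change of -0.61 (SE 0.0838, edgeR adjusted p = 0.000162). Mefv, which encodes pyrin, had a log2 fold change of -1.10 and Trim44 and Trim8 were at -0.26 and -0.25 (edgeR adjusted p from 0.000836 to 0.00206). Trim28, a corepressor of retroelements, was at 0.09 (adjusted p = 0.106), and Trim56, which acts on STING, at 0.06 (adjusted p = 0.433). Trim30a, Trim30b, Trim30c and Trim30d had lower fold changes than any of these 36 genes, as the choice of the set favours, and the other 6 genes of the set lay within their range of -1.10 to 0.78.

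**Figure D3:**
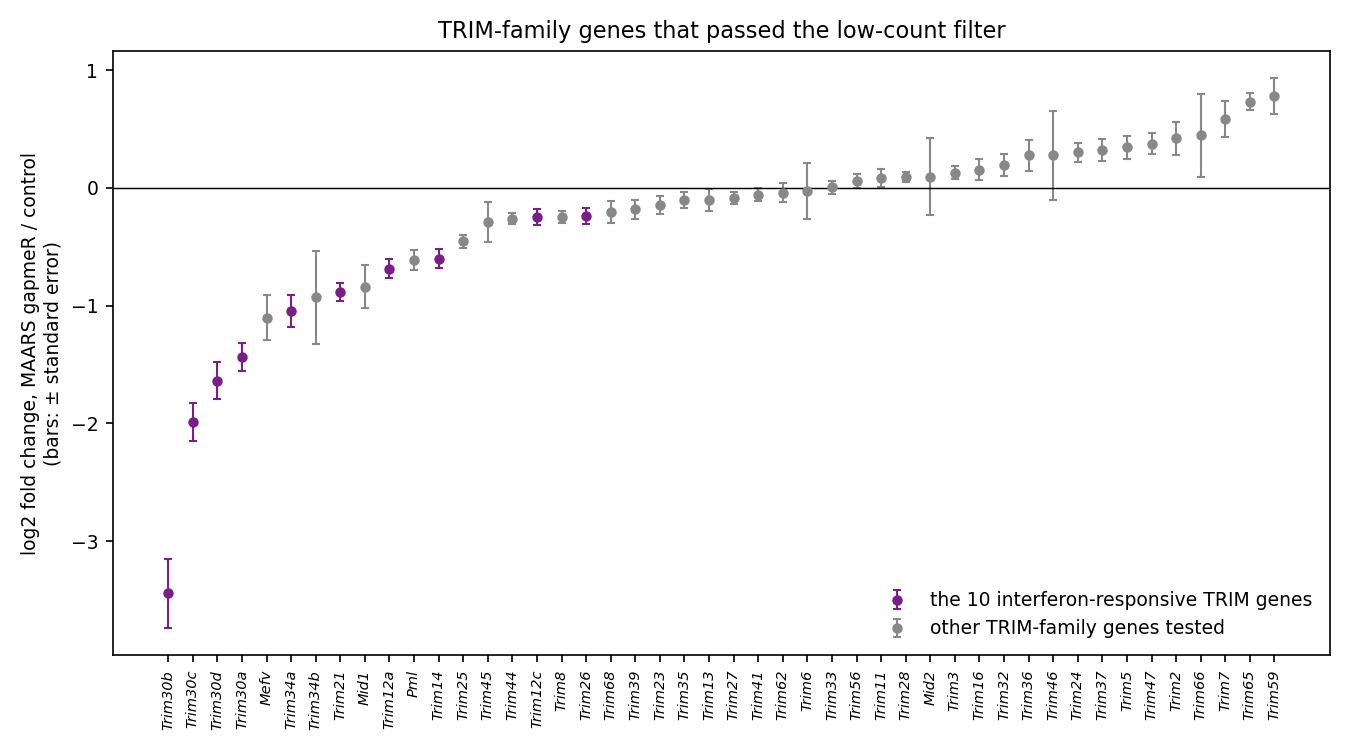
Log2 fold change of MAARS gapmeR against control for each TRIM-family gene that passed the low-count filter, ordered by value, with bars for the standard error (10 interferon-responsive genes in purple, 36 others in grey). The 10 purple genes lie between -3.44 and -0.24, and the grey ones between -1.10 and 0.78.

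Since the set names neighbouring copies, 7 of the 10 genes lie within a stretch of chromosome 7 from 104244457 to 104507849 (GRCm38). Within 1 Mb of that stretch lie 164 other annotated genes in the table, of which only 8 passed the low-count filter. By edgeR 2 of these 8 rose (25.0%, against 21.3% of all genes tested), 0 fell (against 24.0%) and 6 did not pass the test. The median log2 fold change was -0.04, and 5 of the 8 were below 0. With only 8 genes, these shares are not read as a result. At an unadjusted p under 0.05 there were 2 lower, and by DESeq2 and limma-voom 0. Those that rose were Fam160a2, an adaptor for endosome transport, at 0.39 (SE 0.0681, edgeR adjusted p = 0.000772), and Trim5. Trim5 (104263386 to 104288094) stands between Trim34a and Trim12a. It was at 16.8, 19.0, 17.6 and 14.9 CPM in control and 21.2, 22.0, 24.7 and 18.8 CPM after knockdown, so the groups overlapped at MAARS gapmeR library 15. Its log2 fold change was 0.35 (SE 0.0965, edgeR adjusted p = 0.0129), opposite in sign to that of both its neighbours. Trim34b and the pseudogene Gm16464, which sits inside Trim30d and stood at -0.98 on the log2 scale (edgeR adjusted p = 0.0579), were named after their values were seen. Gm16464 was lower at an adjusted p under 0.05 when no count filter was used, and 2 of the 8 neighbours were called lower when MAARS gapmeR library 13 was left out. The pseudogene Trim30e-ps1 had 0 counts in every library.

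**Figure D4:**
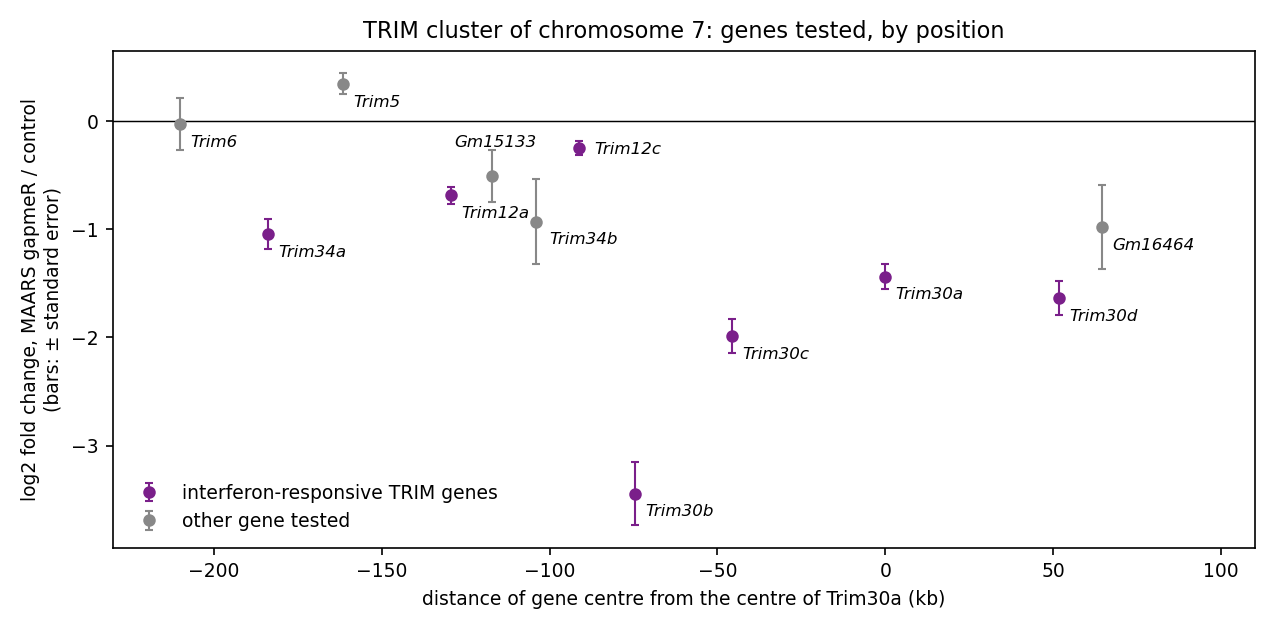
Log2 fold change (bars, standard error) of the genes tested in the TRIM cluster of chromosome 7, plotted by the distance of the gene centre from the centre of Trim30a in kb (interferon-responsive TRIM genes in purple, other genes in grey). Trim5, at 0.35, lies above the line at 0 between Trim34a at -1.05 and Trim12a at -0.69.

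The promoters were compared next. The genes were named as interferon-responsive, a property known to go with the ISRE, so its share among them is a description and not separate evidence. RefSeq windows from 250 bases before to 50 bases after a start site (GRCm38.p6) were found for 9 of the 10 genes, all but Trim14. They were searched on both strands for the ISRE core, taken as GAAA, any 2 bases and GAAA again, which reads TTTC, any 2 bases, TTTC on the other strand. The core was found in 7 of 9 genes (77.8%), against 401 of 9831 tested genes with a window (4.08%) and 2 of 28 other TRIM-family genes tested (7.14%), Trim2 and Trim5. The 9 windows are not separate observations, because most of these genes are copies of each other. The stretches of 30 bases around the core are shown to make these likenesses visible, each on the strand of its gene, 5′ to 3′, with the core in capitals.
Trim30a: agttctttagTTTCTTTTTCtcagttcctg
Trim30d: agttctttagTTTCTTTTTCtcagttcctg
Trim12a: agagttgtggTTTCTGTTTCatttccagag
Trim12c: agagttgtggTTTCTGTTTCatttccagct
Trim5: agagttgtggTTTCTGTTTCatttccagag
Trim34a: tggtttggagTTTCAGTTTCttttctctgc
Trim21: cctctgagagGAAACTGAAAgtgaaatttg
Trim26: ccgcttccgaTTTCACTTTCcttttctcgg
In this order the stretches lie at chr7:104465210-104465239, chr7:104507871-104507900, chr7:104315466-104315495, chr7:104353359-104353388, chr7:104288136-104288165 and chr7:104244457-104244486, then at chr7:102565450-102565479 for Trim21 and chr17:36836976-36837005 for Trim26. The genes on chromosome 7 are on the minus strand, apart from Trim34a.

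The core began 36 bases before the start of Trim30a, 41 before that of Trim30d and 29 before that of Trim12c. In Trim12a and Trim34a it began at base 11 of the RefSeq transcript, and in Trim21 at bases 14 and 20, where 2 overlapping matches stand. Trim26 also held 2 overlapping matches, 160 and 154 bases before its start. Trim30a has a further RefSeq start 19068 nt downstream, with a match at base 3. The Trim30a and Trim30d stretches were identical, and so were those of Trim12a, which was lower after knockdown, and Trim5, which was higher. By the RefSeq starts the position differed in the latter pair, since the core began 49 bases before the start of Trim5 and at base 11 of Trim12a. For Trim12a the RefSeq start lies 29 nt upstream of the GENCODE gene start, so the core stands before the GENCODE start.

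The pair with the lowest fold changes, Trim30b and Trim30c, was the pair without the core. The stretch of Trim30c most like the one above differed from it at 5 of 30 bases, marked in capitals, and lies at chr7:104400896-104400925 on the minus strand.
Trim30c: agttctGtGgttCctttttctcagttccAC
Trim30c was also the 1 gene of the 9 (11.1%) with a gamma-activated site (TTC, any 3 bases, GAA), which begins 62 bases before its start. That share is close to the 8.07% of tested genes, so the match is not read as a trait of the set. For Trim30b the RefSeq start lies 11238 nt downstream of the GENCODE gene start, so the window searched does not cover the latter. No match says only that these letters are not in this window.

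**Figure D5:**
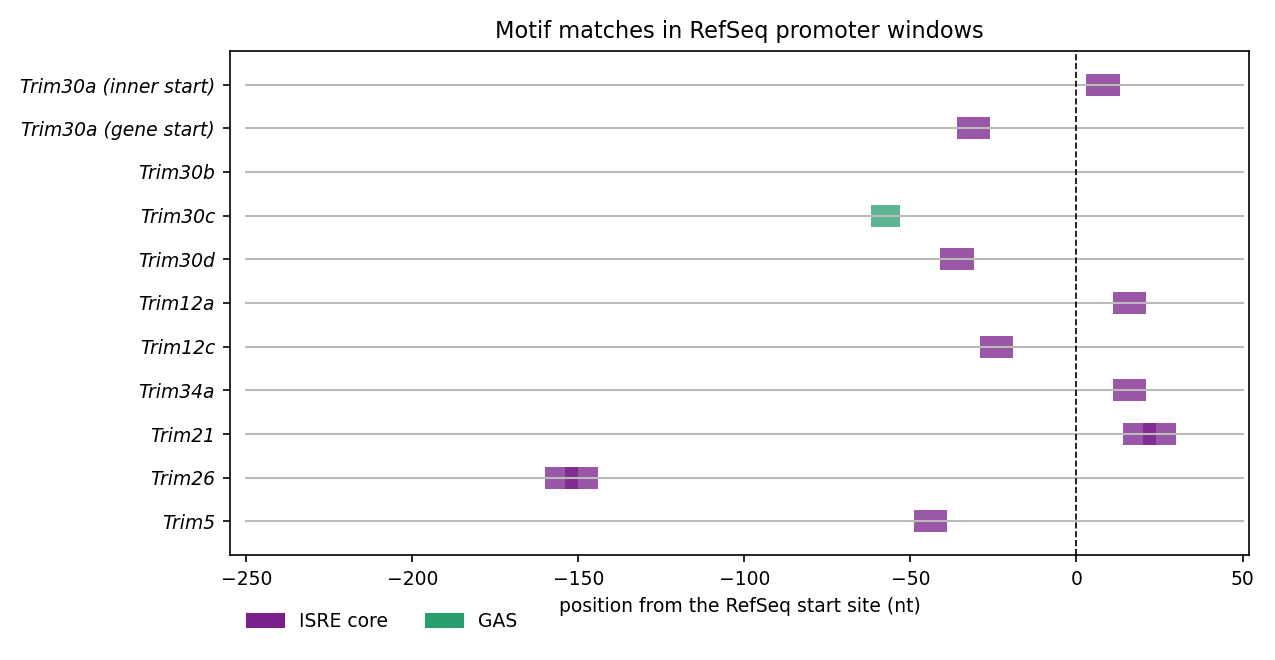
Matches to the ISRE core (purple) and the gamma-activated site (GAS, green) in RefSeq promoter windows, as the distance in nt from the start site (dashed line at 0), with 1 row per window and overlapping matches drawn darker. Most purple boxes lie within 50 nt of the start, those of Trim26 lie at -160 and -154, and the rows of Trim30b and Trim30c have none.

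The routes on which these TRIM proteins act were followed by lists of named genes, and genes named beyond the 3 with the smallest p of each list were chosen after their values were seen. The lists were chosen with earlier results of these data known, so their shares are a description and not separate evidence. The counts below stand beside the 24.0% of all genes tested that were called lower and the 21.3% called higher. In the route of RNA and DNA sensors, 10 of 14 genes fell (71.4%), 1 rose and 3 did not pass the test, with a median log2 fold change of -0.46. The lowest fold changes were those of Irf7, the transcription factor at the end of the route, at -3.20 (SE 0.346, edgeR adjusted p = 3.05e-05), and of the nucleic acid sensor Zbp1. The 3 genes with the smallest p were sensors, with Zbp1 at -3.20 (SE 0.244), Ddx58, which encodes RIG-I, at -1.74 (SE 0.144) and Ifih1, which encodes MDA5, at -1.29 (SE 0.127; edgeR adjusted p from 5.27e-06 to 1.67e-05). Irf3, the target of TRIM26, was the gene that rose, at 0.16 (edgeR adjusted p = 0.0334). That call was lost in 7 of 8 fits that left out 1 library, with an adjusted p of up to 0.103, and held without MAARS gapmeR library 13. Of the 10 genes that fell, Mavs and Nlrp3 (edgeR adjusted p = 0.0474 and 0.0291) each kept the call in 2 of these 8 fits. Of 7 alternative fits, Mavs kept it in 3 and lost it by DESeq2, and Nlrp3 kept it in 6.

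In the TAK1 branch, on which TRIM30a acts, 4 of 10 genes fell (40.0%), 1 rose (10.0%) and 5 did not pass the test, with a median of -0.10. Nfkbia, the inhibitor of NF-κB, was at -0.35 (SE 0.0637), Traf6 at -0.25 (SE 0.0579) and Chuk at -0.20 (SE 0.0463; edgeR adjusted p from 0.00114 to 0.0048). The RNA of both targets of TRIM30a was near its control level, with Tab2 at 0.04 (SE 0.0529, edgeR adjusted p = 0.544) and Tab3 at -0.11 (SE 0.0662, edgeR adjusted p = 0.202). Tab1 was the gene that rose, at 0.33 (edgeR adjusted p = 0.0104). Map3k7, among the 4 that fell, was at -0.12 (SE 0.0432, edgeR adjusted p = 0.0429). That call held in 3 of 7 alternative fits and in 2 of 8 fits that left out 1 library.

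TRIM21 hands antibody-coated virus to the segregase p97 and the proteasome. In that route 3 of 11 genes fell (27.3%), 2 rose (18.2%) and 6 did not pass the test, shares close to those of all genes tested, with a median of -0.10. Vcp, which encodes p97, rose from 439.9 ± 15.6 to 536.0 ± 3.91 CPM, a log2 fold change of 0.28 (SE 0.0423, edgeR adjusted p = 0.000272). Its cofactors Nploc4 and Ufd1 fell, by 0.48 and 0.21 on the log2 scale (edgeR adjusted p = 8.42e-06 and 0.00574). In the signalling from the type I interferon receptor, 6 of 9 genes tested fell (66.7%), 1 rose (11.1%) and 2 did not pass the test, with a median of -0.71. Among those of smallest p were Stat2, part of the complex that binds the ISRE, at -1.52 (SE 0.139) and Usp18, which holds back the receptor, at -2.32 (SE 0.243; edgeR adjusted p = 1.12e-05 and 2.45e-05). Ifnar1, a chain of the receptor, rose by 0.29 (edgeR adjusted p = 0.000649). Jak1, among the 6 that fell, was at -0.12 (SE 0.0468, edgeR adjusted p = 0.04999). That call held in 4 of 7 alternative fits and in 2 of 8 fits that left out 1 library. Of the ligands listed, Ifnb1 had at most 2 counts in any library and Ifna4 had 0, and other interferon genes were not examined.

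To find the genes whose pattern was most like that of Trim30a, the distance between centred log2 CPM profiles over the 8 libraries was computed for all genes tested outside the set. The nearest were Parp12 (distance 0.166), Stat2 (0.175), Gm49342 (0.188), Slfn2 (0.196) and Dhx58 (0.202), with log2 fold changes from -1.52 to -1.36. Among the 9 other TRIM genes of the set, Trim30d was the nearest at 0.386 and Trim34a followed at 0.615. Trim30b was the farthest at 2.98. These distances describe 8 libraries that share 2 groups, and any gene with a like difference between the groups comes out near.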

How the data were processed

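RNA-Seq of 4 control gapmeR and 4 MAARS gapmeR BMDM cultures was used. The authors trimmed reads (Trimmomatic 0.36), aligned them to mm10 (STAR 2.5.2b, Ensembl transcripts) and counted reads of each gene (featureCounts of Subread 1.5.2), per the labels and the methods. The deposited values are raw counts. Strand and multi-mapping settings are not given in the sources used here. In R 4.3.3, edgeR 4.0.16 (filterByExpr with minimum count 10, TMM, glmQLFTest) was fitted to all genes, with Benjamini-Hochberg adjustment over 13051. The pipeline was tested on simulated data. TPM used GENCODE M21 exon lengths (GRCm38), and 0.1 was added to CPM for profile distances. Alternatives were DESeq2 1.42.0, limma-voom (limma 3.58.1), RLE and upper-quartile factors, other filters, a robust prior, summed copies and each library left out. Between replicates chi-square was 4.24 to 15.1 per gene, so none was a duplicate. No source says whether cultures came from separate mice, so p-values measure the spread between these samples.

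The 10 genes and all lists were chosen with earlier results of these data known. Beside the 10 genes and MAARS, the genes named were the 5 other TRIM genes of lowest p that rose and the 5 that fell, Trim25, Trim28, Trim56 and Pml, 3 genes of each list by p, chromosome 7 neighbours that passed the test, and 5 genes nearest to Trim30a. Any other gene was named after its values were seen. Some genes that this rule or the marker lists name are not reported here.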

Additional observations from a re-analysis of the deposited data

Results flagged for a closer look

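Among 41 named genes, each examined in both groups of 4 libraries (82 groups), 1 value stood apart from the rest of its group. Ufd1, a cofactor of p97 in the TRIM21 route, was at 46.2 CPM in control gapmeR library 5, and the other 3 control libraries lay between 50.8 and 51.0 CPM. That gap is 0.967 of the range of the group, above Dixon's critical value for 4 samples. Chance flags about 1 in 20 groups. No value of the 10 interferon-responsive TRIM genes stood apart in this way.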

How the results depend on the processing

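The 10 TRIM genes kept their direction in all 7 alternatives of normalization, test, filter and prior and in all 8 fits that left out 1 library, where their median log2 fold change lay between -1.04 and -0.90. That direction was largely set in advance, because the genes were picked for being lower and their groups did not overlap. It is thus no separate support. With the close copies summed, the value of the sum replaced that of each copy, -1.55 for Trim30b and Trim30c and -0.40 for Trim12a and Trim12c. Of other named genes, Trim28 was called higher with upper-quartile factors (0.16, adjusted p = 0.015). In the sensor route, 0 genes were called higher with no filter, and 0 to 1 when 1 library was left out. Of the chromosome 7 neighbours, 1 was called lower with no filter, and 0 to 2 when 1 library was left out (2 without MAARS gapmeR 13, 1 without control gapmeR 7). All other counts of calls stayed within 1.5 times. Over all settings the count called lower ran from 8 to 10 in the sensor route and 3 to 5 in the TAK1 branch. In interferon signalling it ran from 5 to 8. No scaling moved the median of all genes by more than 0.1, and upper-quartile factors gave 3622 calls higher and 2379 lower, against 2782 and 3137. No paired analysis was possible because the groups share no replicate number. Depth limits Trim30b (24 to 76 counts after knockdown) and Ifnb1 (0 to 2 counts in a library).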
